A study of Zea mays with 9 samples.

Results

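HSP90-1 (GRMZM2G024668) and Hsp70 (GRMZM2G310431) are heat shock genes of maize, 2 of the 39656 gene identifiers in the deposited count table. They were picked by identifier from earlier results of the comparison of P1-ww714 with B73, so their difference between these genotypes is given as a description, with no test. Neither gene passed the test in the comparisons that did not choose them, and a single P1-ww714 library held the highest level of both.

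RNA was sequenced from seedlings aged 14 days, with 3 libraries for each of 3 genotypes: the inbred B73, from which the maize reference genome was made, P1-ww714, and P1-ww714/B73, the heterozygote between them. All plants grew in a chamber with light and dark periods, and no heat treatment is named in the labels. The allele is one of p1, a MYB regulator gene of red pigments on chromosome 1. From background knowledge, and not from the labels, the allele comes with a duplicated segment of chromosome 1 that ends at p1. Whether P1-ww714 plants are homozygous is not written in the labels. Libraries are named as separate samples, with no word on separate plants, so the p-values cover the spread among libraries, and that spread may be technical.

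Heat shock proteins are molecular chaperones, which hold, fold or rescue other proteins. HSP70 proteins bind unfolded stretches of new or damaged proteins and release them with the use of ATP, and HSP90 proteins act later, on partly folded clients such as receptors and kinases. In plants the heat-inducible members are switched on by heat shock factors, transcription factors that bind heat shock elements in promoters, while other members are made at all times.

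Library totals ran from 9486044 to 16189684 counts. The leaf genes of the C4 pathway were abundant in each genotype, with the summed level of the mesophyll genes pdk1, pep1 and mdh6 between 28001 and 38913 CPM in the 9 libraries (CPM, counts per 1000000, with library sizes scaled by the trimmed mean of M values, TMM). Of 12 kernel genes, 7 had 0 counts in every library, but 2 were expressed highly enough to be tested. These were bt2 (GRMZM2G068506) at 24.9 to 33.8 CPM and sh2 (GRMZM2G429899) at 0.62 to 1.79 CPM over the 9 libraries. P1-ww714/B73 replicate 1 had the lowest mean correlation with the other 8 libraries (0.973, against 0.980 to 0.986) and the lowest summed level of 18 genes of dividing cells (618 CPM, against 904 to 1098 in B73 and 885 to 1112 in P1-ww714). In seedling RNA, a lower transcript level per cell and fewer cells that express a gene cannot be told apart.

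HSP90-1, of the HSP90 family by its name, was detected at low depth. For replicates 1, 2 and 3, B73 gave 61, 157 and 103 counts, P1-ww714/B73 gave 67, 223 and 187, and P1-ww714 gave 223, 260 and 659. The TMM-scaled levels were 4.75, 13.2 and 10.4 CPM in B73, 6.04, 14.2 and 19.4 CPM in P1-ww714/B73 and 14.2, 22.2 and 43.3 CPM in P1-ww714. The P1-ww714 libraries lay above the 3 B73 libraries without overlap, as was so for 6.86% of tested genes, though the lowest P1-ww714 library exceeded the highest B73 library by little. P1-ww714/B73 overlapped both other genotypes. Its libraries lay wholly above those of B73 for 3.47% of tested genes, and P1-ww714 lay wholly above it for 3.73%. The means were 9.44 ± 4.30 CPM in B73, 13.2 ± 6.73 in P1-ww714/B73 and 26.6 ± 15.0 in P1-ww714 (SD, n = 3 per genotype). Within a genotype the highest library stood 2.78 to 3.21 times above the lowest. That spread was wider than counting error, which was 12.8% at 61 counts and 3.90% at 659 counts as the square root of the count over the count.

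Hsp70, of the HSP70 family by its name, was measured at greater depth, with 1607, 1091 and 1391 counts in B73, 1238, 2026 and 1803 in P1-ww714/B73 and 2864, 1595 and 4143 in P1-ww714. The levels were 125, 91.7 and 140 CPM in B73, 112, 129 and 187 CPM in P1-ww714/B73 and 183, 136 and 272 CPM in P1-ww714. Here all 3 genotypes overlapped, since P1-ww714 replicate 2 lay below B73 replicate 3. The means were 119 ± 24.9 CPM in B73, 143 ± 39.5 in P1-ww714/B73 and 197 ± 69.0 in P1-ww714 (SD, n = 3 per genotype). Counting error was 3.03% or less in each library, so the spread between libraries of a genotype was again wider. The lowest HSP90-1 library of each genotype was replicate 1, and the highest Hsp70 library of each genotype was replicate 3. The labels do not say whether a replicate number marks a shared batch.

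**Figure D1:**
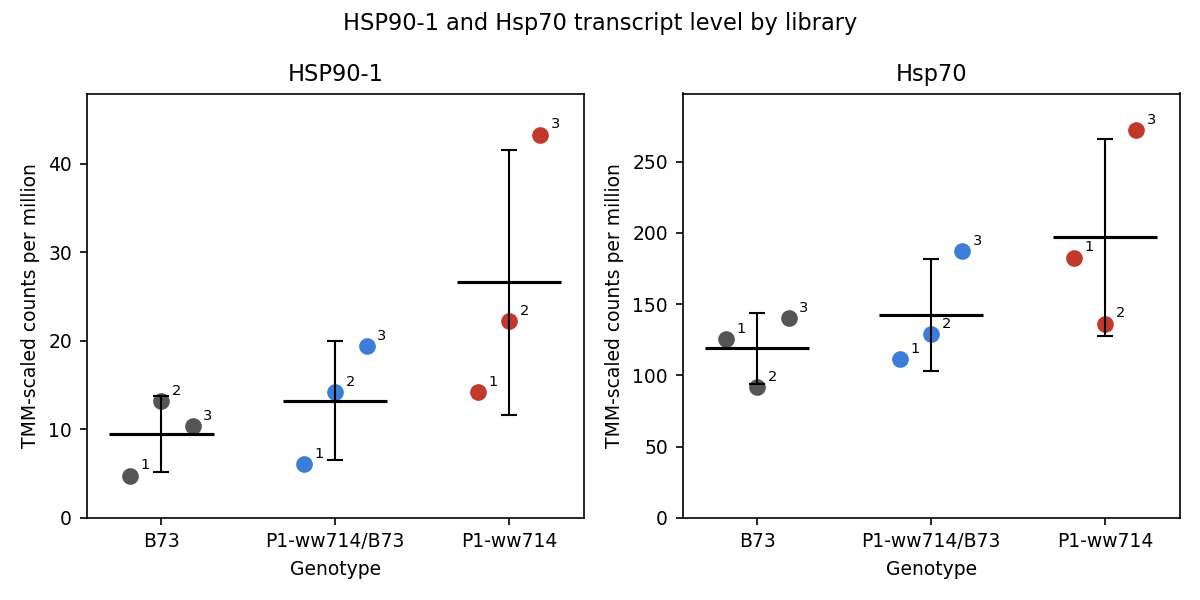
Level of HSP90-1 (left) and Hsp70 (right) in each library, in TMM-scaled CPM on linear axes from 0, by genotype. Points are libraries with their replicate number, horizontal lines are means and bars are 1 SD (n = 3). P1-ww714 replicate 3 is the highest point in both panels, at 43.3 and 272 CPM.

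The order of the means was the same for both genes, with B73 lowest, P1-ww714/B73 between and P1-ww714 highest. P1-ww714 against B73 was at 2.83-fold for HSP90-1 (1.5 on the log2 scale, SE 0.49) and 1.66-fold for Hsp70 (0.73, SE 0.26), the differences by which the genes were chosen. P1-ww714/B73 against B73, which shares the B73 libraries with that comparison, was at 1.40-fold for HSP90-1, with a log2 fold of 0.49 (SE 0.50, 95% interval -0.63 to 1.60) and an edgeR adjusted p of 0.99999 over 22544 genes. For Hsp70 it was at 1.20-fold, with a log2 fold of 0.26 (SE 0.26, 95% interval -0.32 to 0.84) and an edgeR adjusted p of 0.99999. The unadjusted quasi-likelihood p-values from edgeR were 0.356 and 0.348, and 2.59% of tested genes had one under 0.05. In this comparison 0.111% of tested genes passed at an adjusted p of 0.05. The intervals reach from a lower to a higher level in the heterozygote, so neither a difference of 1.5-fold nor its absence was shown for either gene.

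P1-ww714 against P1-ww714/B73 shares the P1-ww714 libraries with the comparison that chose the genes. HSP90-1 was at 2.02-fold there, with a log2 fold of 1.01 (SE 0.48, 95% interval -0.05 to 2.08) and an unadjusted edgeR p of 0.0597. Hsp70 was at 1.38-fold, with a log2 fold of 0.47 (SE 0.26, 95% interval -0.11 to 1.05) and an unadjusted edgeR p of 0.104. The adjusted p was 0.99997 for both in the edgeR test, in which no tested gene passed (percentage called 0), while 680 (3.02%) were under 0.05 before adjustment. DESeq2 called 27 genes there, with none of the chaperone genes among them. Thus B73 and the heterozygote, and the heterozygote and P1-ww714, are neighbours in the order of means that did not differ beyond their spread for either gene.

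P1-ww714 replicate 3 is shown apart because its level of both genes was the highest of all 9 libraries. For HSP90-1 it stood 1.95 times above the next library, P1-ww714 replicate 2, and for Hsp70 it stood 1.45 times above the next, P1-ww714/B73 replicate 3. Without it, the P1-ww714 libraries held 14.2 and 22.2 CPM of HSP90-1 and 183 and 136 CPM of Hsp70. The difference from B73 was then 1.93-fold for HSP90-1 (log2 fold 0.95) and 1.34-fold for Hsp70 (0.42). Against P1-ww714/B73 the log2 fold of HSP90-1 was 0.46 and that of Hsp70 was 0.16 without this library. That these folds fell was fixed in advance, since the library left out was picked as the highest for both genes. The gap between replicate 3 and the mean of replicates 1 and 2 of P1-ww714, in log2(CPM + 1), was 1.24 for HSP90-1 and 0.78 for Hsp70. Of 20059 tested genes with an average log2 CPM of at least 1, 15.8% had their highest level in this library.

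Other libraries also moved these folds. Without P1-ww714/B73 replicate 3 the heterozygote's log2 fold over B73 was 0.13 for HSP90-1 and 0.01 for Hsp70, and without P1-ww714/B73 replicate 1 it was 0.83 and 0.41. Without B73 replicate 1 the value for HSP90-1 was 0.15 and without B73 replicate 2 it was 0.82. Without B73 replicate 2 the value for Hsp70 was 0.10, and without B73 replicate 3 it was 0.40.

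HSP90-1 lies on chromosome 1, as p1 does, and follows p1 by 661 tested genes in the gene order of the reference assembly (Zm-B73-REFERENCE-NAM-5.0). The 40 tested genes nearest to it, 20 on each side, had a median log2 fold of -0.04 in P1-ww714 against B73. None passed the edgeR test, which called only 0.776% of all tested genes. Hsp70 lies on chromosome 8, and its 40 nearest tested genes had a median of 0.03, with none past that test. The neighbours of both genes thus stood near the median of all tested genes, -0.0022. An unadjusted edgeR p under 0.05 was found for 4 of the 40 neighbours of HSP90-1 and 3 of the 40 of Hsp70, against 7.13% of all tested genes. DESeq2 called 0 and 1 of them, against 1.38% of genes.

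The other chaperone genes were taken by symbol from the reference table, which gave 16 identifiers beside HSP90-1 and Hsp70, all of them tested. Among them GRMZM2G111477 and GRMZM2G458208 share the symbol CPN60I and were counted separately. In P1-ww714 against B73, 15 of these 16 were above 0 with a median log2 fold of 0.39, against -0.0022 over all tested genes. None of the 16 passed the edgeR test over all genes, which called 0.776% of genes, or the DESeq2 test, which called 1.38%. An unadjusted edgeR p under 0.05 was found for 4 of the 16, against 7.13% of all tested genes, and the libraries did not overlap, with P1-ww714 higher, for 4 of the 16, against 6.86%. Without P1-ww714 replicate 3 the median was 0.19 with 12 of 16 above 0, and 1 of the 16 had an unadjusted p under 0.05, against 4.43% of tested genes. In P1-ww714/B73 against B73 the median was 0.14 with 15 of 16 above 0, and it was 0.37 without P1-ww714/B73 replicate 1. No member had an unadjusted p under 0.05 there or was called by DESeq2, which called 0.324% of genes. Between P1-ww714 and the heterozygote the median was 0.21 with the 3 P1-ww714 libraries and 0.04 without replicate 3. None had an unadjusted p under 0.05 in that comparison or was called by DESeq2, which called 0.12% of genes.

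Among the HSP90 genes, HSP90-2 (GRMZM2G012631) held 609 ± 56.0 CPM in B73, 664 ± 106 in P1-ww714/B73 and 718 ± 34.6 in P1-ww714 (SD, n = 3). Its P1-ww714 libraries, at 689 to 756 CPM, lay above those of B73 at 550 to 661, a separation found for 6.86% of tested genes. The log2 fold of HSP90-2 was 0.24 (edgeR adjusted p = 0.855). This gene gave a narrow spread where HSP90-1 gave a wide one. The third gene, hsp82 (GRMZM5G833699), stayed between 1.2 and 3.0 CPM in all libraries, with a log2 fold of 0.30.

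Among the HSP70 genes, hsp70-5 (GRMZM5G802801) was closest to Hsp70. Its levels were 16.8, 15.2 and 22.9 CPM in B73, 17.9, 21.4 and 31.5 in P1-ww714/B73 and 28.0, 20.6 and 43.9 in P1-ww714. As for Hsp70, the lowest B73 library was replicate 2, the highest library of each genotype was replicate 3 and the genotypes overlapped. Its log2 fold in P1-ww714 against B73 was 0.76 (edgeR adjusted p = 0.537), and 0.42 without P1-ww714 replicate 3. hsp70-4 (GRMZM2G340251) stayed between 886 and 1435 CPM, with a log2 fold of 0.25. bip1 (GRMZM2G114793) and bip2 (GRMZM2G415007), which encode the HSP70 proteins of the endoplasmic reticulum, had log2 folds of 0.42 and 0.48, and 0.21 and 0.28 without that library. The labels do not say how reads that match several copies of the HSP70 family were counted, and the counts of these genes are uncertain to that extent.

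Small heat shock proteins keep damaged proteins from clumping, and HSP101 pulls clumped proteins apart. hsp22 (GRMZM2G007729) held 19.5, 17.2 and 29.5 CPM in B73, 13.8, 30.9 and 35.1 in P1-ww714/B73 and 23.7, 19.6 and 67.9 in P1-ww714. P1-ww714 replicate 1 and replicate 2 lay within the range of B73, and the log2 fold over B73 of 0.76 became -0.02 without replicate 3. hsp18f (GRMZM2G083810) held 13.3, 13.4 and 32.8 CPM in P1-ww714 against 7.48 to 14.7 in B73, and its log2 fold of 0.83 became 0.25 without replicate 3. hsp101 (GRMZM2G360681) held 23.5, 12.6 and 35.3 CPM in P1-ww714 against 9.83 to 18.5 in B73, and its log2 fold of 0.71 became 0.31 in the same way. Over the 6 small heat shock protein genes the median log2 fold was 0.76 with the 3 P1-ww714 libraries and 0.12 without replicate 3. hsp18a (GRMZM2G404249), too low in expression for the naming rule and named after its values were seen, went the other way. It had 6, 4 and 3 counts in B73, 13, 7 and 6 in P1-ww714/B73 and 14, 12 and 10 in P1-ww714, where replicate 3 was the lowest library, and its log2 fold was 1.17 with all libraries and 1.33 without replicate 3. hsp26 (GRMZM2G149647) was the 1 chaperone gene below 0, at -0.12.

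The chaperonin genes, which encode barrel-shaped folding chambers, had a median log2 fold of 0.15 in P1-ww714 against B73. CPN60II (GRMZM2G416120) held 71.0, 76.3 and 77.2 CPM in P1-ww714 and 60.6 to 79.1 in B73, and P1-ww714/B73 replicate 1 was the lowest library at 28.6 CPM. P1-ww714 replicate 3 was the highest of the 9 libraries for HSP90-2, hsp82, hsp70-4, hsp70-5, bip1, bip2, hsp101 and 4 of 6 small heat shock protein genes, and for none of the 3 chaperonin identifiers. That is 11 of the 16 chaperone genes other than HSP90-1 and Hsp70, beside 15.8% of the 20059 genes. For HSP90-2 the lead was slight, at 756.2 CPM against 755.6 in the highest P1-ww714/B73 library. For hsp82 it was 3.02 CPM against 2.92 in the highest B73 library.

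**Figure D2:**
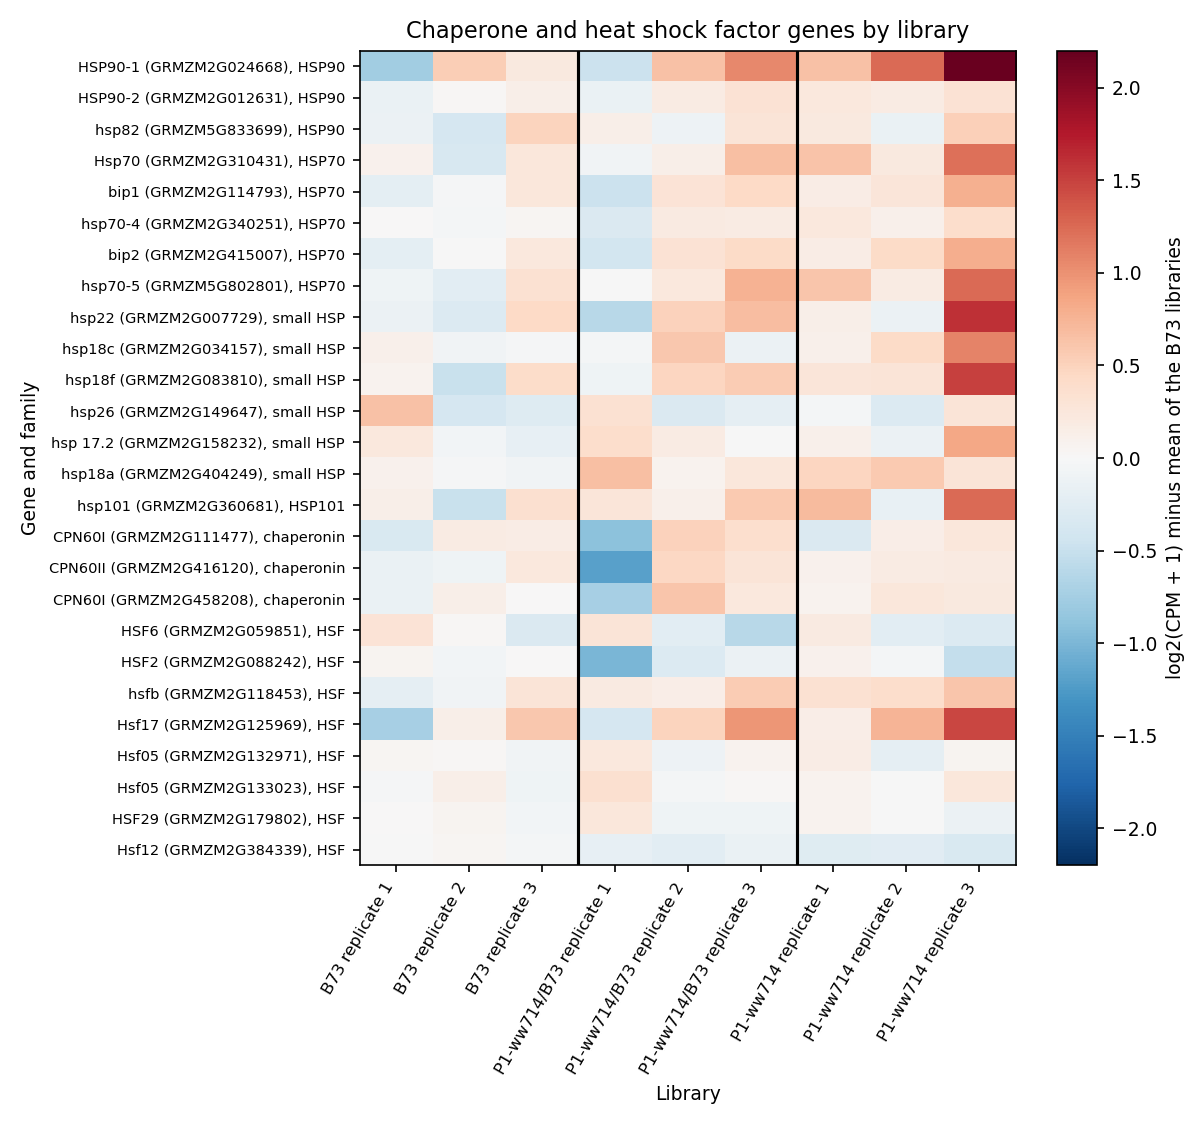
Each row is a tested chaperone or heat shock factor (HSF) gene and each column a library; colour gives log2(CPM + 1) minus the mean of the B73 libraries, red for higher and blue for lower. P1-ww714 replicate 3, the rightmost column, is the highest of the 9 libraries for 11 of the 16 chaperone genes other than HSP90-1 and Hsp70.

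**Figure D3:**
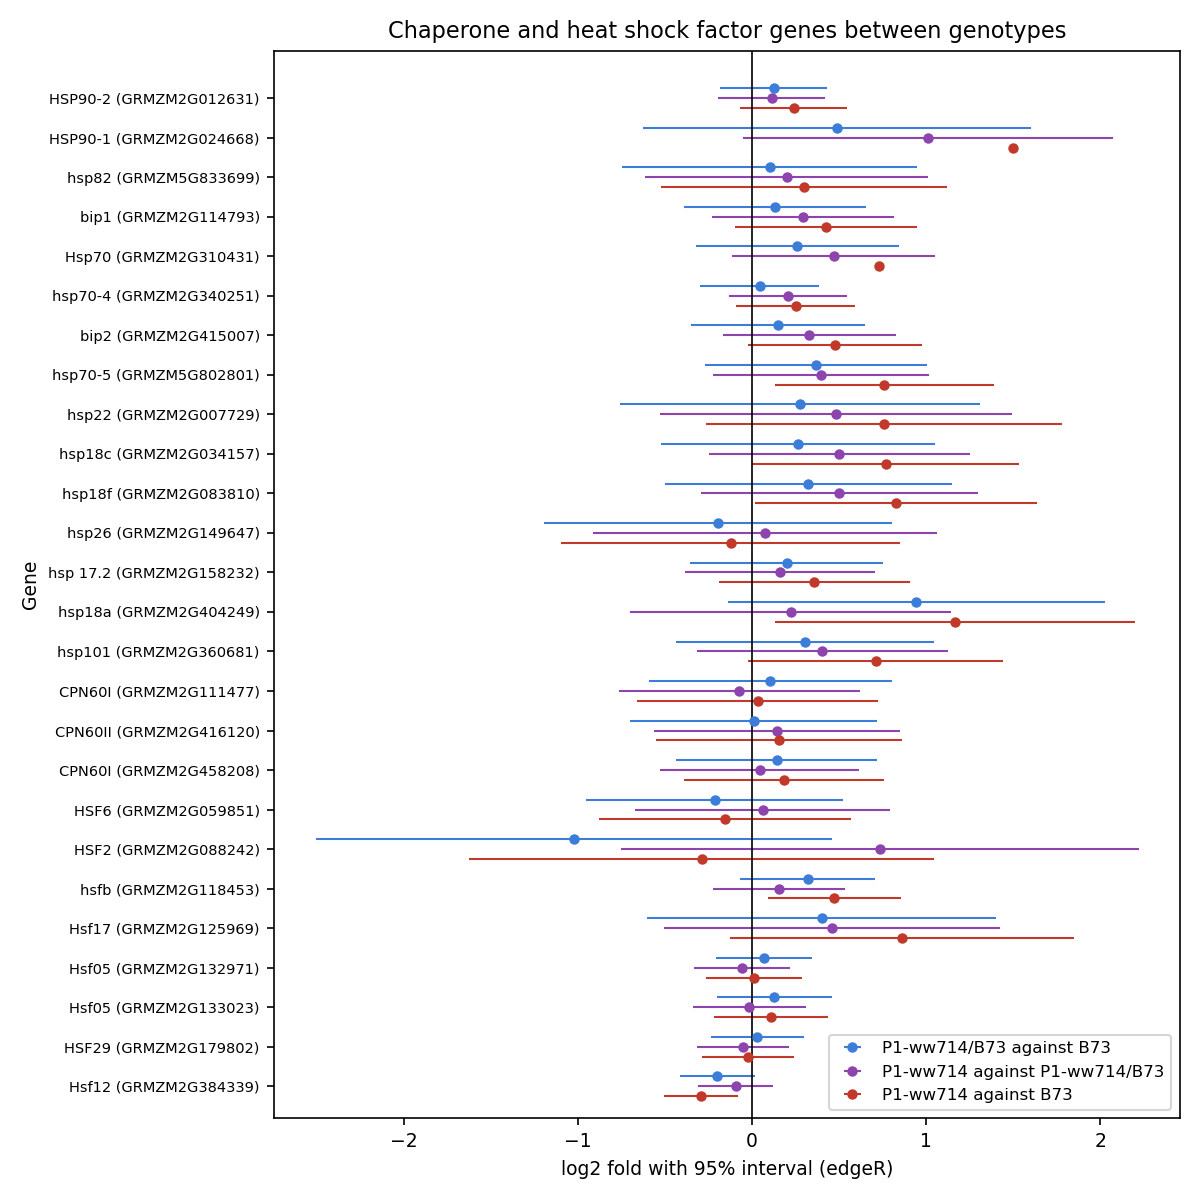
Log2 folds from edgeR for the same genes in 3 comparisons, with 95% intervals as horizontal lines. HSP90-1 and Hsp70 have no interval in P1-ww714 against B73, the comparison by which they were chosen, where they lie at 1.5 and 0.73.

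Heat shock factors were listed by 11 identifiers, with Hsf05 entered under both GRMZM2G132971 and GRMZM2G133023, and 8 of the 11 passed the expression filter. In P1-ww714 against B73, 4 were above 0 and 4 below, with a median log2 fold of -0.0048. None passed the edgeR test, which called 0.776% of genes, or the DESeq2 test, which called 1.38%. An unadjusted edgeR p under 0.05 was found for 2 of 8, against 7.13% of all tested genes. Hsf17 (GRMZM2G125969) had levels like those of HSP90-1 across libraries, at 5.30, 10.3 and 14.7 CPM in B73, 7.03, 13.6 and 19.3 in P1-ww714/B73 and 10.5, 16.4 and 27.8 in P1-ww714. The genotypes overlapped, and replicate 3 was the highest library of each genotype. The log2 fold of Hsf17 in P1-ww714 over B73, 0.86 (edgeR adjusted p = 0.783), became 0.41 without P1-ww714 replicate 3. hsfb (GRMZM2G118453) held 12.5 ± 2.41 CPM in B73, 15.6 ± 2.67 in P1-ww714/B73 and 17.3 ± 1.88 in P1-ww714. Its P1-ww714 libraries lay wholly above those of B73, as was so for 6.86% of tested genes. The log2 fold of hsfb was 0.47 (edgeR adjusted p = 0.519).

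Hsf12 (GRMZM2G384339) ran the other way, from 23.9 ± 0.726 CPM in B73 over 20.8 ± 0.652 in P1-ww714/B73 to 19.5 ± 0.590 in P1-ww714 (SD, n = 3). The B73 libraries held 23.3 to 24.7 CPM, the heterozygous ones 20.2 to 21.5, and the P1-ww714 libraries were all below 20.2, with the lowest at 18.8, so no genotypes overlapped. Its log2 fold in P1-ww714 against B73 was -0.29 (edgeR adjusted p = 0.415), and -0.27 without P1-ww714 replicate 3. A separation of this kind, P1-ww714 below B73 in every library, was found for 6.42% of tested genes, P1-ww714/B73 lay wholly below B73 for 3.37%, and P1-ww714 wholly below P1-ww714/B73 for 3.05%. Of the 3 identifiers under the filter, named here after their counts were seen, Hsf26 (GRMZM2G003489) had 3, 1 and 6 counts in B73, 1, 3 and 13 in P1-ww714/B73 and 3, 6 and 21 in P1-ww714. Hsf03 (GRMZM2G164909) had 12 counts in P1-ww714 replicate 3 and 5 or fewer in the other libraries, and Hsf23 (GRMZM2G173090) had 0 in all. At these depths no difference between genotypes was detectable for the 3.

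The patterns of HSP90-1 and Hsp70 over the 9 libraries resembled each other only in part. Pearson's r between them, in log2(CPM + 1), was 0.70 and Spearman's rho 0.72 (n = 9 libraries, which share depth and scaling for both genes). Without P1-ww714 replicate 3 the r was 0.41 (n = 8), and without the 2 libraries farthest from the median of HSP90-1, P1-ww714 replicate 3 and B73 replicate 1, it was 0.44 (n = 7). Without the 2 farthest from the median of Hsp70, P1-ww714 replicate 3 and B73 replicate 2, it was 0.62 (n = 7), so the value depended on which libraries were left out.

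Of 22 other chaperone and heat shock factor genes ranked, 9 had a higher r with HSP90-1 than Hsp70 did, and 10 had a higher r with Hsp70 than HSP90-1 did. Of these, Hsp70 was closest to hsp70-5, with an r of 0.98, rank 2 of 20058 ranked genes. Without P1-ww714 replicate 3 this r was 0.95, at rank 11. hsp101 (r = 0.92) and hsp18f (r = 0.92) held ranks 8 and 9 with all libraries. Without that library they stood at 0.85 and 0.81, at ranks 151 and 234. Of the same genes, HSP90-1 was closest to Hsf17 (r = 0.94, rank 8) and bip2 (r = 0.93, rank 9). Without that library these values were 0.90 and 0.89, at ranks 58 and 72. With all libraries bip1 followed at 0.91 (0.84 without P1-ww714 replicate 3). For HSP90-1 the r with hsp101 was 0.46 and with hsp70-5 0.76, and these became -0.03 and 0.54 without the library. These correlations describe 9 libraries and carry no test.

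**Figure D4:**
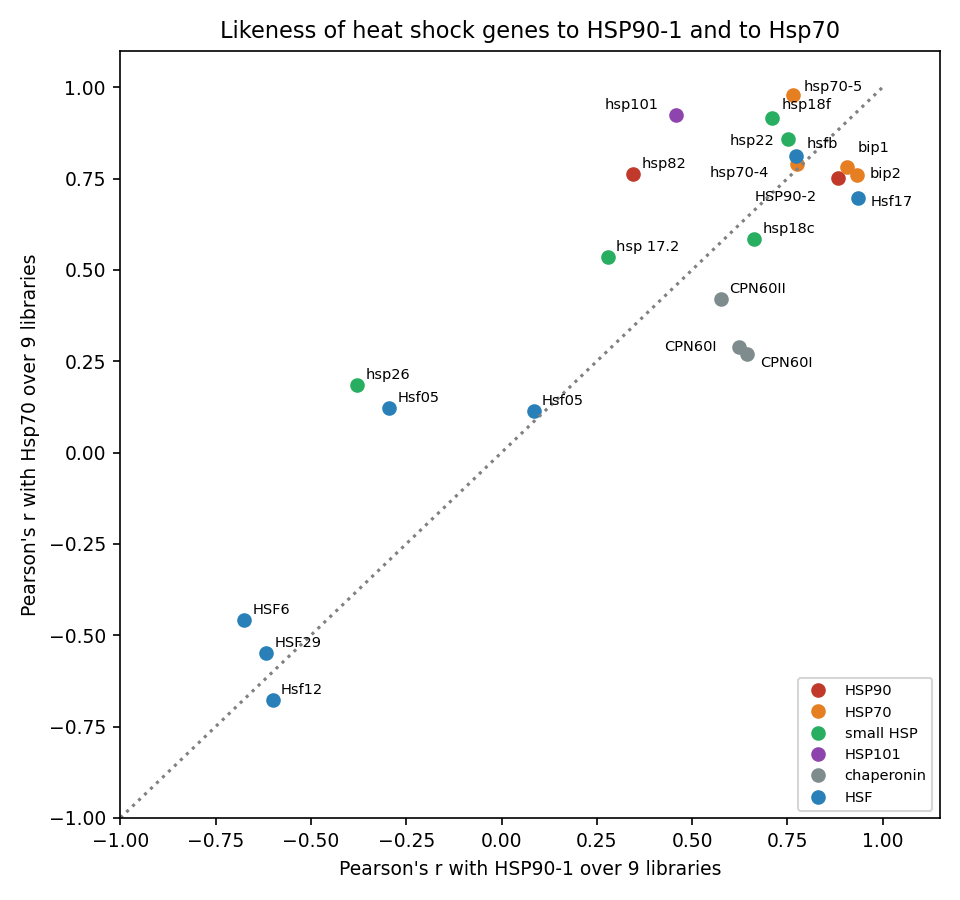
Pearson's r of each chaperone or heat shock factor gene with HSP90-1 (horizontal) and with Hsp70 (vertical) over the 9 libraries, in log2(CPM + 1); the dotted line marks equal values. hsp70-5 and hsp101 lie above it (0.98 and 0.92 with Hsp70, 0.76 and 0.46 with HSP90-1), and Hsf17, bip1 and bip2 lie below it.

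Over all 20058 genes ranked, the gene most like Hsp70 was AC209784.3_FG007, with an r of 0.99 over 9 libraries and 0.99 over 8. It was at 7.1 to 13.4 CPM in B73, 10.6 to 20.02 in P1-ww714/B73 and 12.0 to 30.1 in P1-ww714, and the reference table gives it no name. Next came hsp70-5, GRMZM2G002034 (r = 0.97), GRMZM2G137558 (0.97) and GRMZM2G179985 (0.94). Over the 8 libraries without P1-ww714 replicate 3, the 5 closest were AC209784.3_FG007, GRMZM2G022945, GRMZM2G002034, GRMZM2G145752 and GRMZM2G069865, of which 2 were shared with the first 5.

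The genes most like HSP90-1 were GRMZM2G048434 (r = 0.97), R-S (GRMZM5G822829, r = 0.96), GRMZM2G017593 (0.95), GRMZM2G109472 (0.94) and GRMZM2G179346 (0.94). R-S, which encodes a bHLH regulator of anthocyanin pigments, had 9.7, 13.9 and 12.5 CPM in B73, 9.5, 12.1 and 15.3 in P1-ww714/B73 and 12.4, 14.7 and 20.9 in P1-ww714. Over the 8 libraries the closest were GRMZM2G068959, GRMZM2G056569, AC233961.1_FG001, GRMZM2G034083 and GRMZM2G131727, none of them shared with the first 5. None of the first 5 is on the lists of heat shock genes. An r above 0.9 was found for 37 genes with HSP90-1 and 20 with Hsp70 over 9 libraries, and for 54 and 52 over the 8 without P1-ww714 replicate 3.

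Folding genes of the endoplasmic reticulum, listed as bip, protein disulfide isomerase and calreticulin genes, were also compared. In P1-ww714 against B73, 10 of 16 were above 0 with a median log2 fold of 0.10, none passed the edgeR test upward and 2 passed it downward, against 0.124% of tested genes, both of them identifiers of PDIL5-1 (GRMZM2G073628 and GRMZM2G443655) on chromosome 1, named after their values were seen. Without P1-ww714 replicate 3, 1 of the 16 passed, downward, beside 23 of 22776 tested genes that passed downward in that setting. In P1-ww714 replicate 3 the median over the B73 mean was 0.07, against 0.06 and 0.09 in replicates 1 and 2.

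Genes outside protein folding were compared in the same library, and those named here were chosen after their values were seen. Of 6 tested nitrate genes, 5 had their highest level there, beside 15.8% of the 20059 genes. The list median over the B73 mean was 0.92 in this library against 0.05 and 0.10 in replicates 1 and 2. NAR (GRMZM5G878558) held 65.5, 70.2 and 223 CPM in P1-ww714 and NIR (GRMZM2G079381) 119, 132 and 293. NNR1 (GRMZM2G568636) held 494 to 800 CPM in P1-ww714, above B73 at 323 to 451, a separation found for 6.86% of tested genes. Its log2 fold over B73 was 0.63, and 0.39 without P1-ww714 replicate 3. Of the dehydration genes, dhn1 (GRMZM2G079440) had 11, 2 and 3 counts in P1-ww714 and dhn-2 (GRMZM2G373522) held 32.3, 23.8 and 21.3 CPM. Replicates 1, 2 and 3 held 38.6, 23.3 and 20.6 CPM of dhn-2 in B73 and 28.0, 21.4 and 17.2 in P1-ww714/B73. The level of dhn-2 thus fell from replicate 1 to replicate 3 in each genotype. The part of these differences in the levels of HSP90-1 and Hsp70 was not tested.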

How the data were processed

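The labels' protocols state extraction of total RNA from seedlings and standard Illumina libraries. The authors deposited one table of counts, whole numbers that were not normalized, and TopHat and HTSeq are named in the submitters' processing notes. Build, annotation, strand setting and treatment of shared reads: not given in the sources used here. All 9 columns matched labelled samples by name. Of 39656 identifiers, 18775 matched the reference table (assembly Zm-B73-REFERENCE-NAM-5.0), which gave symbols and gene order.

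Counts were filtered by filterByExpr (minimum count 10, 22544 genes), scaled by TMM and fitted with edgeR 4.0.16 in R 4.3.3, over all 9 libraries without a block. The quasi-likelihood F test was adjusted by Benjamini-Hochberg at 0.05. Standard errors and 95% intervals were derived from each fold with its F statistic, and CPM from the deposited counts. Likeness used log2(CPM + 1). The procedure was tested on simulated data.

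Members and lists were chosen with earlier results of these data known. Genes named were both members, tested chaperone and heat shock factor genes, and the 5 genes most like each member. After the files were seen, hsp82 was added to the HSP90 list by name, CNX, carotenoid and Rab GTPase symbols were left out of theirs, and the joint chaperone list, the overlap counts, the neighbour window and the replicate 3 gap were added. Lists by protein signature and promoter motifs were not used here. Alternatives were RLE size factors, no filter, DESeq2 1.42.0, a block for replicate number, a fit of only the compared groups, and leaving out each library in turn; lists without hsp82 or P1-ww714/B73 replicate 1 were added after seeing the data.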

Additional observations from a re-analysis of the deposited data

How the results depend on the processing

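All 84 alternative values for HSP90-1 and Hsp70 over the 3 comparisons kept the direction of the reported ones, and none of the 56 with a test passed the threshold. The genes were chosen from P1-ww714 against B73, and the other comparisons share libraries with it. Every alternative refits the same libraries, so the shared direction is not independent support. Leaving out single libraries moved the log2 fold of HSP90-1 between 0.95 and 1.83 in P1-ww714 against B73, 0.13 and 0.83 in P1-ww714/B73 against B73, and 0.46 and 1.37 between P1-ww714 and the heterozygote. For Hsp70 the ranges were 0.42 to 0.93, 0.01 to 0.41 and 0.16 to 0.71. Genes called over the genome numbered 175, 25 and 0 in these comparisons. DESeq2 called 311 (224 higher, 87 lower), 73 and 27, and the cause was not tested. With only the groups compared in the fit, the 25 became 0 while the 175 became 201, and the cause was not tested. Without single libraries the counts ran from 121 to 224, from 6 to 14 (20 without P1-ww714/B73 replicate 1), and from 0 to 4 (2 without P1-ww714 replicate 1, 4 without P1-ww714 replicate 3). The filter on low counts and RLE size factors kept the counts within 1.5 times.

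Same-numbered libraries deviated together in some pairs only (r from -0.17 to 0.55), and not every library correlated best with its own number, so the numbers were not taken to pair the samples; whether they mark a batch is not in the labels. With the replicate block 243, 18 and 0 genes were called, and the log2 folds of HSP90-1 were 1.45, 0.43 and 1.02 and those of Hsp70 0.69, 0.25 and 0.44. Under the block Hsf17 was among the calls of P1-ww714 against B73, and none of the 16 other chaperone genes was. Without hsp82 the medians of the chaperone genes, the chosen pair included, were 0.48, 0.20 and 0.29, an alternative chosen after seeing the data, as was leaving P1-ww714/B73 replicate 1 out of the lists. The promoter motif share was not run. The median r of the 5 genes most like HSP90-1 was 0.945, 0.927 over 8 libraries and 0.867 by Spearman's rho. HSP90-1 rests on 61 to 659 counts a library, with a counting error of 3.90% to 12.8%. Its SD within a genotype was larger, at 45.5% to 56.5% of the mean, and that spread limits what can be detected.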
